A study of Drosophila melanogaster with 3 samples.

Results

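The cuticle protein genes of Drosophila melanogaster were taken as the protein-coding genes whose symbol is Cpr with a cytological number, Lcp with a number, Ccp84A with a letter or Twdl with any ending, together with Acp65Aa, Pcp, Edg78E and Edg84A. This naming rule gave 121 genes of the 13945 protein-coding genes on the 6 chromosome arms that carry peaks. They comprised 70 Cpr, 15 Lcp, 7 Ccp84A and 25 Twdl genes and the 4 single genes. Arm 3L held 47 of them, 3R held 32, 2R held 27, X held 8, 2L held 7 and chromosome 4 held 0. A member was called clustered where at least 3 members followed each other with gaps of at most 10 kb between gene bodies, which placed 88 members in 16 clusters and left 33 isolated. The isolated members stand alone or as pairs, in 31 runs of 1 or 2 members.

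The binding data came from chromatin immunoprecipitation followed by sequencing (ChIP-seq) on whole prepupae, male and female pooled, of 1 transgenic line with GFP at the C-terminus of the CG4318 protein. An antibody to GFP was used, and all 3 libraries, labelled as biological replicates, belong to this single group. No treated or untagged group was analysed here, so the comparisons are between genes and between replicates. The signal of whole animals mixes epidermis, which makes cuticle, with all other tissues. Each replicate has a list of about 30000 candidate regions, the pooled libraries have another, and 5056 of the pooled candidates form the reproducible list, kept by the irreproducible discovery rate (IDR). Candidate lists are deposited as peaks together with background, so they include regions that the submitters count as background. Each region has a summit and a signal score set by the authors' peak caller on a scale that is not stated, and scores are compared only within a list. Reproducible peaks had scores of 108.7 or more, and the pooled candidates reached down to 31.3. The lists hold no read counts, so depth is unknown.

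Insect cuticle is a layered matrix of chitin fibres and proteins secreted by the epidermis. Most Cpr, Lcp and Ccp proteins carry the chitin-binding Rebers-Riddiford domain, whereas the Tweedle (Twdl) proteins form a separate family named after a mutant with a squat body. Many of these genes arose by tandem duplication and still lie side by side, and each stage uses its own set: Lcp stands for larval cuticle protein, Pcp for pupal cuticle protein and Acp for adult cuticle protein. Edg78E and Edg84A are ecdysone-dependent genes. At the prepupal stage the larval cuticle hardens into the puparium, and the epidermis then lays down pupal cuticle under the control of the steroid hormone ecdysone and the nuclear receptors that answer to it.

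On 3L, 5 reproducible peaks had summits within 2 kb of cuticle protein gene bodies, each described here by the nearest Cpr gene, all encoding proteins of the chitin-binding family. The strongest of these had its summit at position 1829731 (dm6) in an intron of Cpr62Ba, 789 bp upstream of the nearer of its start sites. Its pooled signal score was 192.8, and its scores were 86.7, 67.3 and 40.9 in replicates 1, 2 and 3, at ranks 2437, 2987 and 2557, so that it stood at a similar place in each list. The peak 573 bp upstream of Cpr72Eb had a pooled score of 164.2 and ranks of 3360, 3044 and 3409, again close together. Its summit was also within 2 kb of the bodies of Cpr72Ea and Cpr72Ec. In an intron of Cpr66D, 805 bp downstream of the transcription start site (TSS), a peak scored 149.0 and ranked 8304, 3589 and 1745. Replicate 1 thus placed the Cpr66D peak far lower than replicate 3. The peak 1215 bp upstream of Cpr72Ea scored 129.8, ranked 3595 and 4748 in replicates 1 and 2 and was not listed in replicate 3. The peak in an intron of Cpr73D, 1495 bp from a start site, scored 119.4 and ranked 4798, 6404 and 2911. The bases around each of these 5 summits are printed because these are the reproducible summits listed within 2 kb of cuticle protein gene bodies on this arm. They are on the plus strand of dm6, and capitals mark the longest run of A and T, of 12, 15, 12, 17 and 18 bases in the order given.
Cpr62Ba, chr3L:1829681-1829781: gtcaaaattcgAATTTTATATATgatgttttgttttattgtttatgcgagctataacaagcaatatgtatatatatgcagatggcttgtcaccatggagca
Cpr72Eb, chr3L:16364276-16364376: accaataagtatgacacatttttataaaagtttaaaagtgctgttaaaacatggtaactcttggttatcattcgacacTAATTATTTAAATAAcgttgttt
Cpr66D, chr3L:8641194-8641294: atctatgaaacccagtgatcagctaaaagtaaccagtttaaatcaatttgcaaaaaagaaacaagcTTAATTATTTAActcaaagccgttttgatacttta
Cpr72Ea, chr3L:16361338-16361438: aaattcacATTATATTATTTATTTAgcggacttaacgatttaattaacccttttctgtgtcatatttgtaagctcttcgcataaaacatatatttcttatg
Cpr73D, chr3L:16941404-16941504: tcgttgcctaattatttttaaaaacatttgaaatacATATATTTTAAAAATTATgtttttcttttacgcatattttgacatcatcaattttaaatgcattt
Their GC contents were 30.7%, 25.7%, 28.7%, 25.7% and 18.8%, beside a mean of 30.9% ± 7.12 (SD over peaks) for the 5056 reproducible summits. None of the 5 windows touches an annotated exon.

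On the other arms, 6 further reproducible peaks had summits within 2 kb of a member's gene body. The highest score of all 11, 552.2, belonged to a summit beside Cpr31A on 2L that lay in an intron of Pen, an importin alpha gene, 532 bp from the start of Pen and 3219 bp from that of Cpr31A. Next came a summit 609 bp upstream of Cpr49Ah, with a pooled score of 418.0 and replicate scores of 175.7, 136.7 and 93.8. Cpr50Ca had 2 upstream peaks, at 309 and 1368 bp. The nearer peak scored 341.0 in the pooled list and 79.5, 167.5 and 105.3 in the replicates, at ranks 2769, 626 and 619, so replicate 1 placed it lowest. The farther one scored 278.6 in the pooled list and ranked 5870, 1025 and 659. The remaining peaks lay in an intron of Cpr51A, 281 bp from the start of the overlapping gene CG30197, with a score of 118.7, and 812 bp upstream of Cpr47Ed, with a score of 114.9, just above the lowest score of the reproducible list. The peaks nearest to Cpr31A and Cpr51A therefore lay closer to the start of another gene.

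Within 500 bp of a start site, a reproducible summit was found at 1 of the 121 cuticle protein genes, Cpr50Ca, or 0.826% (95% Wilson interval 0.146 to 4.53), against 9.4% of all protein-coding genes. Among the 88 clustered members the count was 0, with an upper bound of 4.18%, and among the 33 isolated members it was 1, or 3.03%. Genes with several start sites have more chances to hold a summit. Of the members, 111 have 1 start site (91.7%, against 73.5% of all genes), and with such genes alone the shares were 0.901% of members and 5.82% of all. Within gene bodies, a reproducible summit was found in 4 members (3.31%), Cpr62Ba, Cpr66D, Cpr73D and Cpr51A, against 10.2% of all genes. Members with 1 start site had it in 1.8% of cases and all such genes in 4.68%. Cuticle protein genes are short, with a median length of 957 bp against 2166 bp. Per 100 kb of gene body there were 1.95 reproducible summits in members, a value that rests on 4 summits. The density was 3.63 in all genes and 2.10 in all genes with 1 start site. The members' density was thus near that of genes with 1 start site. The part of gene structure in these differences was not tested further. The Wilson intervals cover counting error over genes only, and neighbours in a cluster are not independent.

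The low promoter count was present in each replicate. Taking the 5056 strongest regions of a replicate as its top list, 1 member in replicate 1, 1 in replicate 2 and 2 in replicate 3 had a top summit within 500 bp of a start site, beside 12.5%, 12.8% and 6.88% of all genes. With wider windows, 6 members (4.96%) had a reproducible summit within 1000 bp, against 12.1% of all genes, and 9 (7.44%) within 2000 bp, against 16.3%. In the bin from 1000 to 500 bp upstream of a gene's outermost start, members had 3 reproducible summits, or 2.48 per 100 genes, and all genes had 1.63 per 100. The Cpr62Ba peak, 789 bp upstream of an inner start, is not among these 3. Such bins hold few member summits and vary. From 2000 to 1500 bp upstream members had 0, against 2.07 per 100 over all genes. From 3000 to 2500 bp upstream they had 3.31 per 100, against 1.63. No order is therefore read from the bin of 1000 to 500 bp. In the last 500 bp upstream there were 0.826 per 100 members and 6.70 per 100 genes.

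The pooled candidate list, most of which is weaker, had a candidate summit within 500 bp of a start at 24 members (19.8%), against 22.5% of all genes, and in the gene body of 25 (20.7%), against 25.9%. These shares near the background hold for the pooled list: in the lists of replicates 1 and 2 the members' promoter and body shares were below those of all genes, and in replicate 3 above. Requiring a pooled promoter candidate to be listed in 2 given replicates left 5 to 7 members. The share of all genes under this requirement was not computed, so the drop cannot be read as particular to members. For genes with 1 start site the pooled promoter shares were 20.7% of members and 16.8% of all. The candidates differed in strength. The 26 candidates at member promoters had a median score of 39.8 and a range of 31.5 to 341.0, and 1 of them (3.85%) was reproducible. The 3581 candidates at all promoters had a median of 61.7, and 33.6% of them were reproducible. Candidates were counted as reproducible here by a place among the 5056 highest pooled scores. These shares therefore restate the scores and are no separate measure of replicate agreement. The deposited −log10 q-value had a median of 0.215 at member promoters and 0.741 at all promoters. Of the 26, 10 (38.5%) overlapped a candidate of replicate 1, 13 (50%) one of replicate 2 and 15 (57.7%) one of replicate 3. Over all promoter candidates the shares were 79.9%, 77.2% and 55.3%, so the members' candidates were less supported in replicates 1 and 2 and near the background in replicate 3. Of the 26, 4 were in all 3 (15.4%, against 38.2% of all promoter candidates). Among these 4, the candidates at Cpr49Ah and Cpr72Eb overlapped reproducible peaks with summits farther than 500 bp from the start, and had the same replicate scores as those peaks.

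Counted gene by gene, 71 members (58.7%, against 52.9% of all genes) had no promoter candidate in any replicate's list, 38 had one in a single replicate, 9 in 2 replicates and 3 in all 3. The share in all 3, 2.48%, compared with 9.04% of all genes. The 3 were Cpr50Ca, Cpr47Ec and Cpr97Eb. At Cpr97Eb the nearest summits were 73, 12 and 46 bp from the start in replicates 1, 2 and 3, with scores of 18.4, 21.3 and 31.7. Its pooled candidate lay 9 bp inside the transcript with a score of 62.5, under the lowest reproducible score. At Cpr47Ec the summits were 296, 494 and 354 bp away. Those of replicates 1 and 2 lay outside the gene body, and the pooled candidate, 405 bp inside the transcript, overlapped a region of replicate 3 alone. The count is by gene, so the replicates need not mark the same site. The strongest member candidate outside the reproducible list lay in a non-coding exon of Cpr47Ed and scored 105.6, with replicate scores of 18.9, 41.9 and 27.8. Next to it in strength, with the one at Cpr97Eb, were candidates 409 bp upstream of Cpr49Ah (62.7), in an intron of Cpr76Bc (60.0) and 270 bp upstream of Cpr12A (59.2). The Cpr49Ah candidate overlapped the reproducible peak whose summit lay 609 bp upstream, and its replicate scores were those of that peak. Cpr12A was listed in replicates 1 and 2, with scores of 17.8 and 30.4, and not in replicate 3. Of the 35 pooled candidates in member bodies, 19 lay in introns, 8 in non-coding exons and 8 in coding exons. Over the whole pooled list 3.52% of summits lay in coding exons, a share that is not limited to gene bodies. The exon or intron can belong to another gene: a candidate in the body of Cpr73D lay in a non-coding exon of Ogdh, 37 bp from the start of Ogdh.

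Clustered and isolated members were compared to ask whether arrays of at least 3 members were listed less often than members standing alone or as pairs. In the pooled list, 15 of 88 clustered members (17.0%, Wilson interval 10.6 to 26.2) and 9 of 33 isolated members (27.3%, 15.1 to 44.2) had a promoter candidate, a difference of -10.2 percentage points with overlapping intervals. The replicates differed on it. In replicate 1, 5.68% of clustered and 24.2% of isolated members had a promoter candidate, against 31.8% of all genes. In replicate 2 the shares were 18.2% and 21.2%, against 30.9% of all genes. In replicate 3 they were 26.1% and 18.2%, against 18.7% of all genes. The clustered share was thus the lower one in 2 of 3 replicates and the higher one in replicate 3, and the mean difference of -4.55 ± 13.3 points (SD, n = 3) was smaller than its spread. Over all members the shares were 10.7%, 19.0% and 24.0%, a mean of 17.9% ± 6.68, beside 27.1% ± 7.33 for all genes (SD, n = 3). The labels call the replicates biological, but part of their spread may be technical.

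In gene bodies the pooled shares were 14.8% of clustered members (13 genes) and 36.4% of isolated members (12 genes), a difference of -21.6 points, against 25.9% of all genes. Clustered members had the lower share in 3 of 3 replicates, by -25.8, -5.68 and -9.09 points, with a mean of -13.5 ± 10.7 points (SD, n = 3). The clustered shares were 4.55%, 12.5% and 27.3% and the isolated shares 30.3%, 18.2% and 36.4%, beside 29.0%, 31.3% and 27.2% of all genes. An exact sign-flip test over 3 replicates cannot go below p = 0.25, so the differences are given without a test. Isolated members are longer, with a median of 1454 bp against 869 bp. Introns make up 60.0% of their summed bases against 25.8%, but the median intron share per gene was 23.0% against 9.57%. Per 100 kb of body there were 12.8 pooled candidates in clustered members and 21.8 in isolated members, beside 20.2 in all genes. The isolated value rests on 21 candidates in 96.5 kb, with 3 each in Cpr50Ca, Cpr50Cb, Cpr51A and Cpr73D. Of these, Cpr50Ca, Cpr50Cb and Cpr73D are 17888, 10455 and 18590 bp long. It therefore leans on a few long genes. The difference in gene-body share, unlike the one per base, includes this difference in length, and the part of introns in it was not tested.

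**Figure D1:**
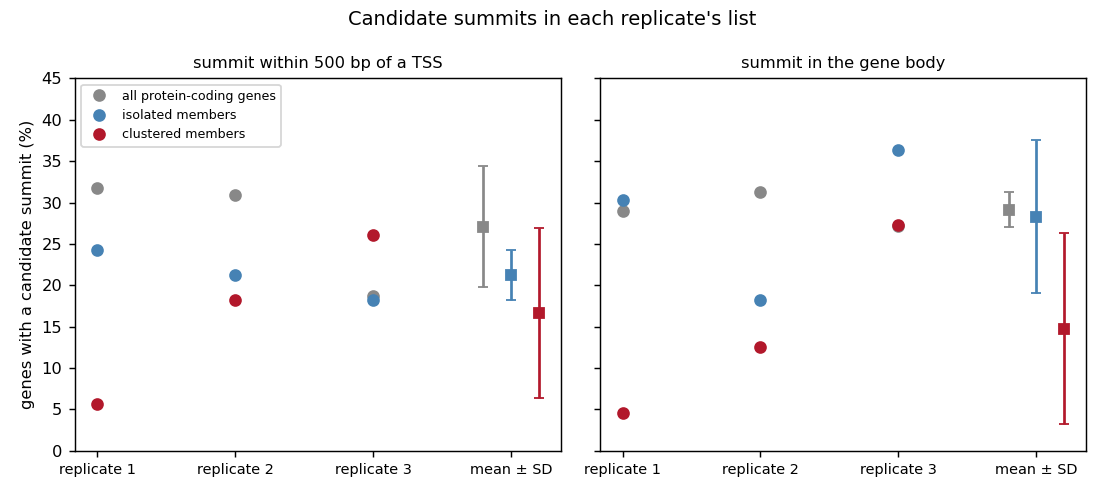
Share of genes (%, linear axis from 0) with a candidate summit within 500 bp of a TSS (left) or in the gene body (right) in each replicate's list, for all protein-coding genes, the 33 isolated and the 88 clustered cuticle protein genes; squares with bars are the mean ± SD over 3 replicates. At promoters the clustered share is 5.68% in replicate 1 and 26.1% in replicate 3, whereas in gene bodies the clustered members lie below the isolated ones in each replicate.

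Replicate 3 differed from the others in what its candidates cover. Over each whole list, 3.17%, 4.16% and 7.52% of the summits of replicates 1, 2 and 3 lay in coding exons, and the mean GC content around the summit was 37.0%, 36.5% and 39.5%. Inside the 16 clusters the corresponding counts were 1 of 28, 5 of 50 and 13 of 66 summits in coding exons, and the GC contents were 34.3%, 39.4% and 42.2%. The cluster spans have 43.8% GC and 26.6% coding bases, against 42.2% and 17.0% on the same 5 arms. The coding share, over the whole list and inside clusters, and the GC content inside clusters had the same order over the replicates as the clustered promoter shares, whereas the GC content of the whole list was lowest in replicate 2. The values inside clusters rest partly on the same summits as the clustered promoter shares. The part of base composition in the replicate difference was not tested.

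Together the clusters span 232.7 kb and held 4 reproducible summits, a density of 0.172 per 10 kb against 0.381 over the 5 arms. Pooled candidates inside them numbered 50, at 2.15 per 10 kb against 2.24. The replicates listed 28, 50 and 66 regions there, although their lists have nearly the same length. Densities were 1.20, 2.15 and 2.84 per 10 kb, beside 2.24, 2.23 and 2.25 over the arms. Of the top-list summits, 4, 3 and 6 fell inside clusters. Thus 12 of the 16 clusters held 0 reproducible summits, and 15 held at least 1 pooled candidate. The share of other stretches of like length without a summit was not computed, so these counts describe the clusters alone. Neighbouring reproducible summits on the 5 arms lay a median of 6.69 kb apart, with an upper quartile of 24.2 kb.

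The 4 reproducible summits were in 4 different clusters, all of Cpr genes. They were the summits at Cpr49Ah in the cluster from Cpr49Ae to Cpr49Ah, at Cpr47Ed in that from Cpr47Ea to Cpr47Eg, at Cpr62Ba in that from Cpr62Ba to Cpr62Bc and at Cpr72Eb in that from Cpr72Ea to Cpr72Ec. The 7 genes of the Cpr47E cluster spread over 26.7 kb with 7 pooled candidates, and the replicates listed 4, 11 and 5 regions there. The small Cpr72E cluster of 3 genes in 4.74 kb had 2 pooled candidates, and its farthest start was 3014 bp from a reproducible summit. The cluster from Cpr64Aa to Cpr64Ad, with 4 genes in 8.58 kb, had 0 pooled candidates, and the replicates listed 0, 1 and 1 regions in it. The nearest reproducible summit was 4088 bp from Cpr64Aa. The nearest members of the clusters Cpr49Aa to Cpr49Ad, Cpr76Ba to Cpr76Bd and Cpr67Fa1 to Cpr67Fb were Cpr49Ad at 21654 bp, Cpr76Bd at 24569 bp and Cpr67Fb at 9333 bp. In the cluster from Cpr65Ea to Cpr65Ec, with 3 pooled candidates, Cpr65Ec was 3492 bp from a reproducible summit, and in that from Cpr78Ca to Cpr78Cc, also with 3, Cpr78Cc was 3988 bp away. None of these 5 clusters held a reproducible summit. The numbered copies Cpr67Fa1 and Cpr67Fa2 were 13516 and 11792 bp from one, and replicate 2 alone listed regions in their cluster, 3 in number.

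The largest array, from Lcp65Ag3 to Cpr65Az on 3L, holds 18 genes in 31.2 kb, among them the larval Lcp65A genes and Acp65Aa, an adult cuticle protein gene. It had 0 reproducible summits and 9 pooled candidates, the strongest scoring 71.4, and 5, 7 and 10 candidates in replicates 1, 2 and 3. The start sites lay from 24345 bp (Cpr65Az) to 45122 bp (Cpr65Av) from the nearest reproducible summit, and the stretch without a reproducible summit that surrounds the array measured 90.3 kb, within the quartiles of 32.5 and 132.8 kb for the stretches around all genes. Acp65Aa itself was 32414 bp from a reproducible summit and 549 bp from a pooled candidate.

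The Tweedle array from TwdlM to TwdlD on 3R holds 12 genes in 21.9 kb, TwdlD among them. It lay in a stretch of 166.6 kb without a reproducible summit, above the upper quartile of 132.8 kb around all genes, and its starts were 71341 bp (TwdlM) to 82519 bp (TwdlN) from the nearest reproducible summit, the largest distances of all members. After TwdlN the farthest were TwdlJ (82141 bp), TwdlK (80947 bp), TwdlH (80656 bp) and TwdlR (79503 bp), all in this array. Candidates inside it numbered 0 in replicate 1, 2 in replicate 2 and 10 in replicate 3, against 6 in the pooled list. The array from Edg84A to Ccp84Aa, 8 genes in 20.5 kb that include Edg84A and the 7 Ccp84A genes, had 2 pooled candidates, and 0, 7 and 7 in the replicates. In both arrays replicate 1 listed no region at all. The smaller Tweedle clusters, from TwdlF to TwdlV and from TwdlX to Twdlalpha, had 1 pooled candidate each. The larval genes Lcp1 to Lcp4 also had 1 pooled candidate, with 3, 1 and 2 in the replicates, and were at least 24975 bp from a reproducible summit.

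**Figure D2:**
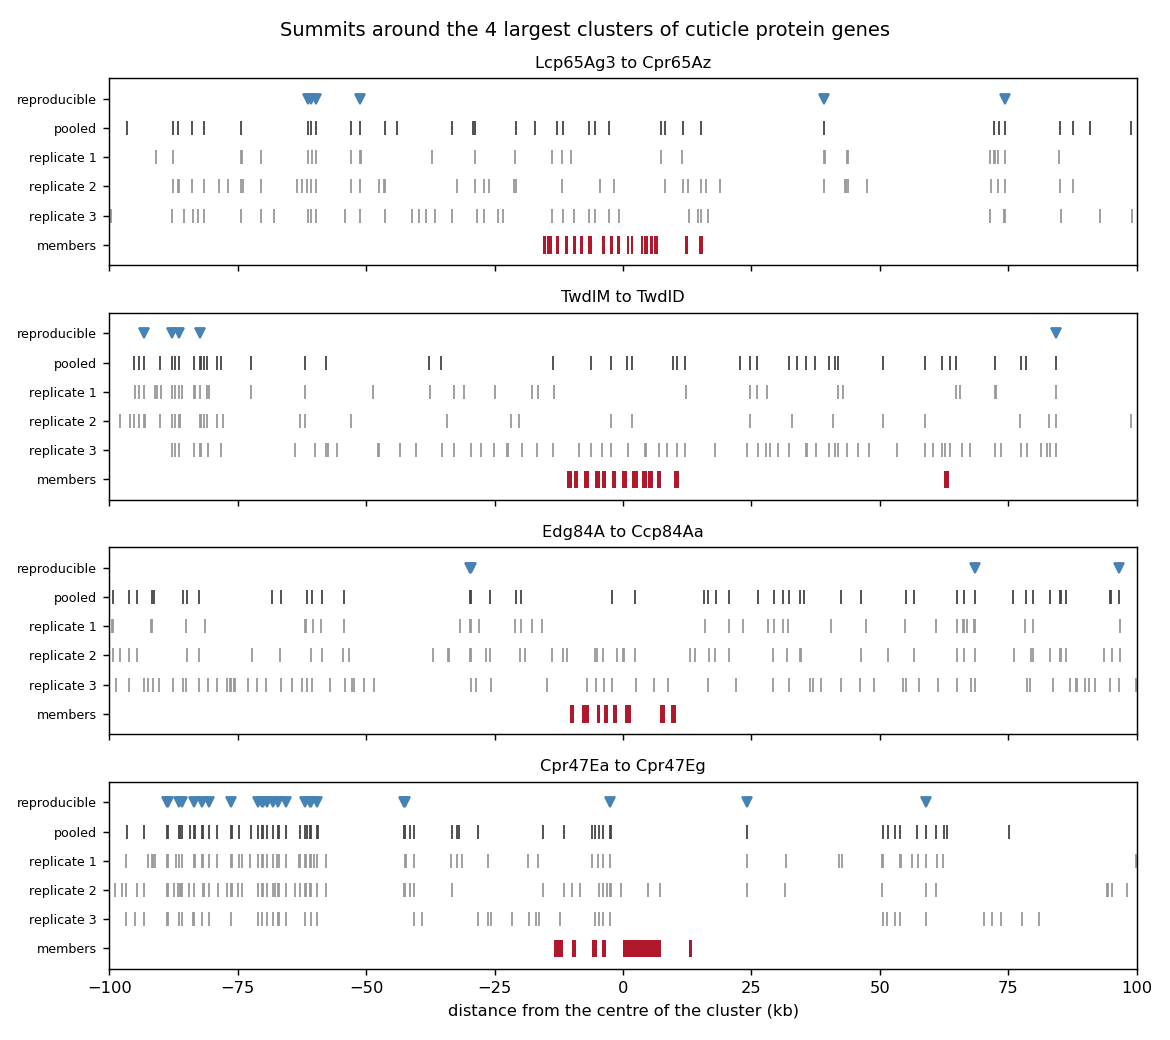
Summits of each list (symbols in rows) and gene bodies of cuticle protein genes (red) within 100 kb of the centre of the 4 largest clusters; the horizontal axis is distance in kb from the cluster's centre. Reproducible summits (triangles) are missing from the first 3 clusters, and the TwdlM to TwdlD cluster sits in a gap of 166.6 kb between them, although pooled candidates occur in all 4.

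Over all members, the median distance from a start site to the nearest reproducible summit was 21275 bp, against 12975 bp over all genes and 14442 bp over genes with 1 start site. Clustered members had a median of 26606.5 bp and isolated members 14689 bp. More than 20 kb separated 62 members (51.2%) from any reproducible summit, against 36.8% of all genes, with 59.1% of clustered and 30.3% of isolated members. With the top lists of replicates 1, 2 and 3, the medians were 21965, 22065 and 12758 bp for members and 10082, 9869 and 13841 bp for all genes. The members' median was therefore the higher one in replicates 1 and 2 and the lower one in replicate 3. It was 18929 ± 5345 bp for members and 11264 ± 2234 bp for all genes (mean ± SD, n = 3). These medians rest on the large arrays. Counting each of the 47 runs of neighbouring members once, by the median within the run, gave 12913 bp, close to the value of all genes; this count was added after the values had been seen. To the nearest pooled candidate the median was 1828 bp for members and 2973 bp for all genes, the opposite order.

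**Figure D3:**
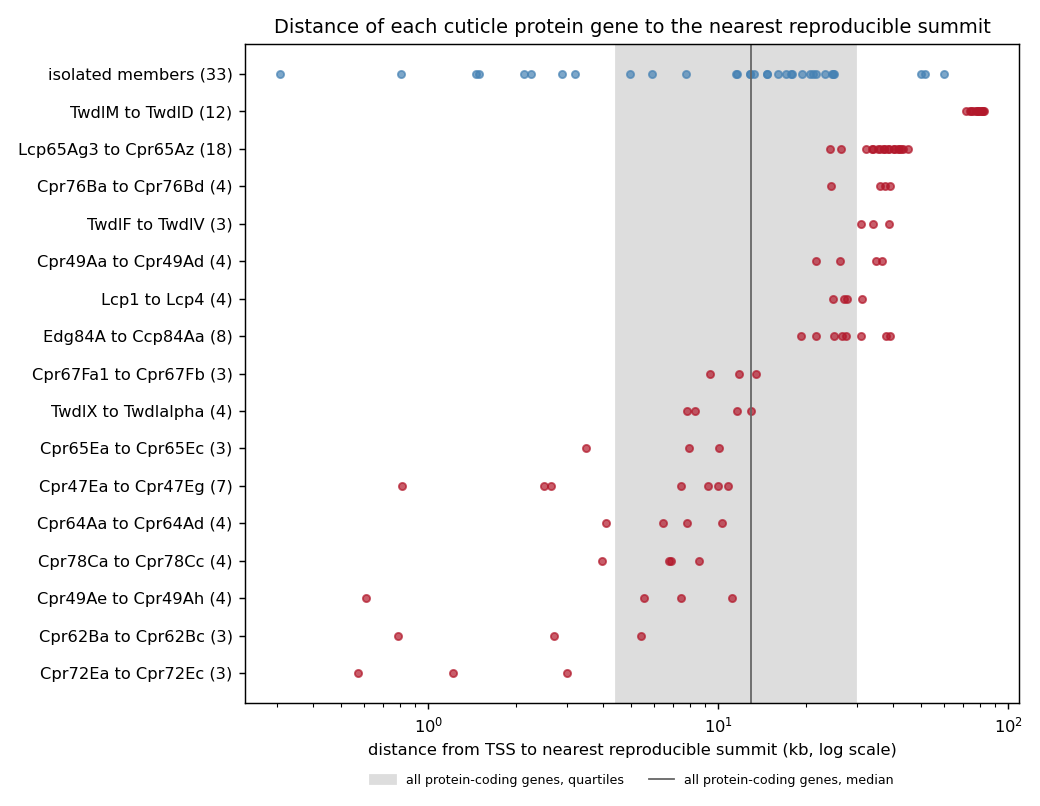
Distance (kb, log axis) from the start site of each cuticle protein gene to the nearest reproducible summit, with 1 point per gene, 1 row per cluster (number of genes in brackets) and the isolated genes on top; the band and line are the quartiles and the median (12975 bp) of all protein-coding genes. The 12 genes from TwdlM to TwdlD lie at 71341 bp or more, whereas several Cpr clusters lie left of the median.

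**Figure D4:**
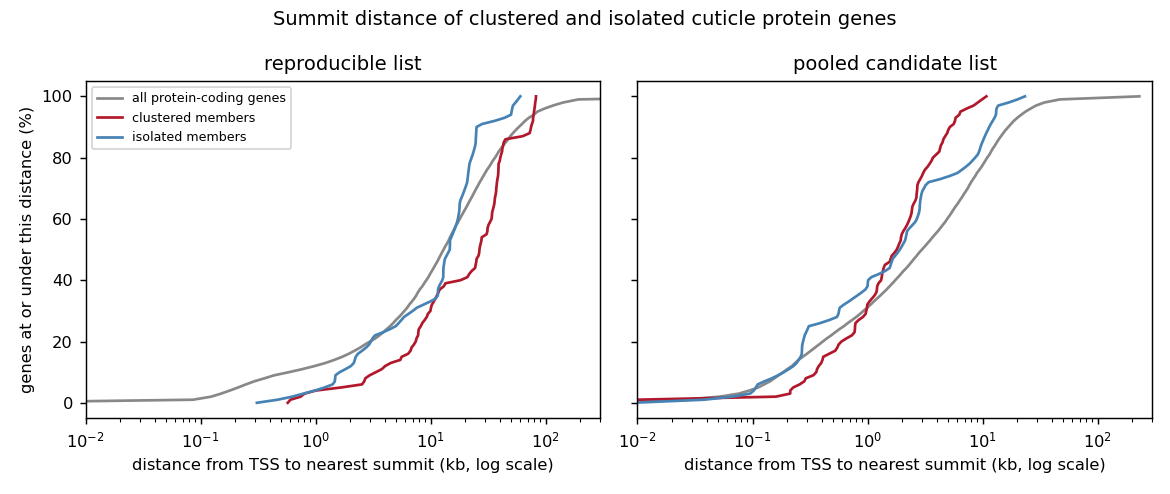
Cumulative share of genes (%) by distance (kb, log axis) from the start site to the nearest summit of the reproducible list (left) and of the pooled candidate list (right). Clustered members (red) run right of all genes (grey) over most of the left panel, with medians of 26606.5 and 12975 bp. The curves cross near the top, where the 95th percentile is 79313 bp for clustered members and 84716 bp for all genes. In the right panel clustered members run left of all genes at the median.

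The single genes named for their stage or hormone response lay at varied distances from reproducible summits. Pcp was 17762 bp from one, and its nearest candidates in replicates 1, 2 and 3 were 2409, 2479 and 15047 bp away. For Edg78E, in the cluster from Cpr78Ca to Cpr78Cc, the reproducible distance was 6765 bp and the candidate distances were 651, 2389 and 1357 bp. For Edg84A they were 19371 bp, and 5468, 609 and 3165 bp. None of these genes, nor Acp65Aa, had a candidate within 500 bp of its start in any replicate, which holds for most members and for 52.9% of all genes.

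Some members are near copies of each other, and reads from such copies cannot be placed at a single position. The share of 32-base words around the start (500 bp to each side) that occur once in the genome was under 90% at 15 members (12.4%), all clustered, against 4.23% of all genes. It was 9.90% at each of Lcp65Ab1 and Lcp65Ab2, 23.8% at Cpr65Ax1, 27.9% at Cpr65Ax2 and 59.3% to 62.6% at Lcp65Ag1, Lcp65Ag2 and Lcp65Ag3. In the gene bodies of Lcp65Ab1, Lcp65Ab2, Cpr65Ax1 and Cpr65Ax2 it was 0%. How the authors treated reads with several positions is not given in the sources used here, so where such a copy has no summit, this cannot be told apart from a lack of placed reads. Among the 15, 1 had a pooled candidate near its start, Lcp65Ag2, where it lay in a coding exon with a score of 31.5, and TwdlJ had one in its body with a score of 33.9. The other 106 members had a pooled promoter candidate in 21.7% of cases and a reproducible one in 0.943%, beside 23.1% and 9.76% of all genes with as many unique words. Without the 15 copies the median distance to a reproducible summit was 15395 bp, a value added after the data had been seen.

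The promoters of the members share a feature that the naming rule did not use. The TATA box letters TATAAA lay on the gene's strand between 45 and 16 bases before the outermost annotated start at 74 members (61.2%), against 8.75% of all genes, with 59.1% of clustered and 66.7% of isolated members. In 300 bases of promoter, from 250 before to 50 after the start, TATAAA was present on either strand at 75.2% of members and 45.8% of all genes. Its first base fell most often between 30 and 26 bases before the start, at 35 members (28.9%). Promoters of members were also richer in GC, with a median of 44.0% in 300 bases against 38.0%. TwdlN, Cpr97Eb and TwdlQ on 3R have the letters in this place and a pooled candidate near the start, at 9, 9 and 112 bp. Their 120 bases before the start are printed on each gene's own strand (dm6; plus for TwdlN, minus for Cpr97Eb and TwdlQ), with TATAAA in capitals at positions -24, -26 and -34.
TwdlN, chr3R:26631749-26631868: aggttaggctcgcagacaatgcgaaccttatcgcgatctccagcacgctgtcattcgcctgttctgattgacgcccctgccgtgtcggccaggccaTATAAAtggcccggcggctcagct
Cpr97Eb, chr3R:27091131-27091250: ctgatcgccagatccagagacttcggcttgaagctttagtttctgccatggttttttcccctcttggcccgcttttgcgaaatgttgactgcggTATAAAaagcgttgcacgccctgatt
TwdlQ, chr3R:26693591-26693710: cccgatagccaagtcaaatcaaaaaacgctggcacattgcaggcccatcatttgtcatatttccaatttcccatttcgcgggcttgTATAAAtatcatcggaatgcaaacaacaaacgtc
The pooled scores of the 3 candidates were 41.9, 62.5 and 43.3. The TwdlN candidate overlapped one of replicate 2 alone and the TwdlQ candidate one of replicate 3 alone.

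Promoter summits were set beside this motif. Of the 74 members with TATAAA near the start, 0 had a reproducible promoter summit, and of the 47 without it 1 had. Over all genes the shares were 3.52% with the motif and 9.96% without. Pooled candidates went the other way among members, with 17 of 74 (23.0%) against 7 of 47 (14.9%), while all genes had 17.4% and 23.0%. These are counts of letters, with no statement on use of the motif by any factor.

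**Figure D5:**
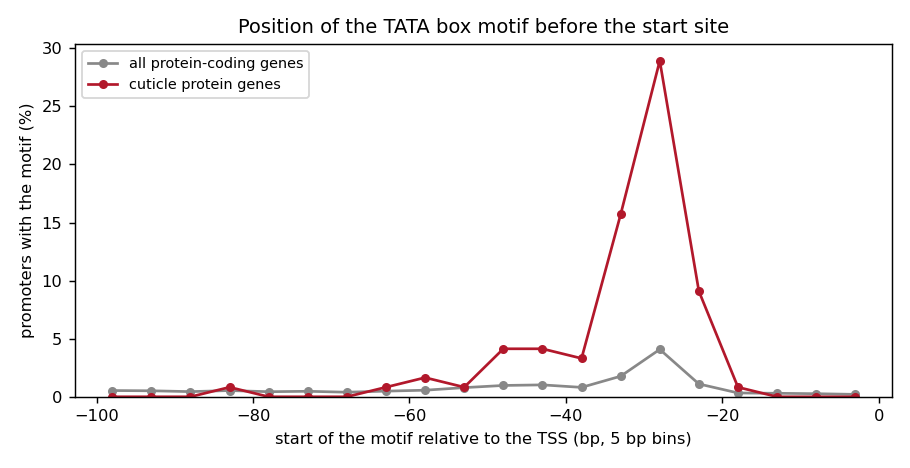
Share of promoters (%, axis from 0) whose TATAAA on the gene's strand starts in each 5 bp bin before the start site (bp), for the 121 cuticle protein genes (red) and all 13945 protein-coding genes (grey). The members' line peaks at 28.9% in the bin from 30 to 26 bases before the start.

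Other genes of cuticle formation were counted from 3 lists. Among 16 genes of chitin synthesis and the chitin matrix, 3 had a reproducible promoter summit: Cht7, a chitinase family gene, at 162 bp with a score of 653.2; mmy, which makes the sugar nucleotide used for chitin, at 478 bp with 306.3; and knk, needed for chitin organisation, at 365 bp with 120.3. In 5 of the 16 a reproducible summit lay in the gene body. All genes had such summits in 9.4% and 10.2% of cases, which is the background for the counts of each of the 3 lists. Of 8 tanning genes matched, which harden and colour cuticle, 0 had a promoter summit and 1, t, had one in the body. The genes ple and Ddc, which encode the first enzymes of the catecholamine path, were 10362 and 15796 bp from the nearest reproducible summit. Among 12 regulators of moulting and epidermal genes, EcR and usp (the partners of the ecdysone receptor), grh, Eip74EF and Eip75B had a promoter summit, and all 12 had one in the gene body. The regulators are long, with a median of 46196 bp. The median lengths of the chitin and tanning genes, 5816 and 5170 bp, were also above the 2166 bp of all genes. In none of the 3 lists were the counts separated from length.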

How the data were processed

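ChIP-seq peak lists in narrowPeak layout for 3 replicates, their pool and the reproducible set were read in build dm6; the dm3 lists were not used. The signal score and the −log10 q-value are deposited as the authors made them. The aligner is not given in the sources used here, nor is the peak caller. The age label, which no prepupa reaches, was not used.

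Genes came from Ensembl release 115 (BDGP6 annotation 54) on Release 6, the sequence of dm6. Each summit was placed within 500 bp of any start site of a gene, in its body, or between the first and last gene of a cluster, and every member entered without a filter. Unique 32-base words were counted over both strands of the reference. The functions were tried on planted data. Shares have 95% Wilson intervals. Values are given without tests: an exact sign-flip test over 3 replicates cannot go below p = 0.25. Named genes are members with a reproducible summit at the start or in the body, the 10 with the strongest candidates, the first, last and nearest member of each cluster, the 5 farthest, near-identical copies and the gene nearest to a summit inside a cluster. The single genes, members with a promoter candidate in all 3 replicates, further Cpr genes beside a peak and the promoters printed were named after their values were seen. The members and lists were chosen with earlier results of these data known. Python 3.11.15, numpy 2.4.6, pandas 2.3.3, scipy 1.17.1 and matplotlib 3.10.9 were used.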

Additional observations from a re-analysis of the deposited data

How the results depend on the processing

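Of the results under alternative settings, 46 kept their value within the spread or within 1.5 times, 25 moved and 2 reversed; the causes were not tested beyond what a setting changes by construction. Windows of 250, 1000 and 2000 bp gave 0, 6 and 9 members with a reproducible promoter summit (1 at 500 bp) and 11, 42 and 66 with a pooled one (24). The pooled shares were 9.09%, 34.7% and 54.5% of members and 13.9%, 31.2% and 42.5% of all genes, so members were below all genes at 250 and 500 bp and above them in the wider windows. With 2 kb on each side of the gene body, 11 members held a reproducible summit (4 without flanks) and 76 a pooled one (25). Peaks in the top lists of all 3 replicates left 1 member with a body summit and a median distance of 27909 bp, beside 23482 bp for all genes. Leaving out 1 replicate and keeping regions listed by both others (by their top lists for reproducible peaks) gave 5 to 7 members at promoters, 9 to 11 in bodies, and 1 to 3 with a reproducible body summit. Shares of all genes were not computed for these counts, for the flanked bodies or for body summits in all 3 top lists. Those counts therefore describe members alone. The clustered minus isolated difference reversed at promoters with the 2000 bp window, to 4.17 points, and in bodies with 2 kb flanks, to 3.03 points. In bodies it was -9.11 points with clusters of 2 or more members, -8.71 with only the strongest candidates (the top part of the list when cut into 3 equal parts), and -16.7 to -10.6 with 1 replicate left out. Clusters held 2 reproducible summits with gaps of at most 5 kb and 9 with 5 kb flanks. Added after the data were seen, the median distance was 15395 bp without members under 90% unique and 12913 bp with 1 value per run of neighbours. No paired analysis was possible because the 3 samples form 1 group, with no second group to pair; clustered and isolated genes were compared within each replicate.

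Depth is unknown, the submitters' control was not analysed here, and candidate lists include background, so the absence of a summit limits only what these lists hold.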
